A study of Mus musculus with 14 samples.

Results

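The 8 genes described here encode cytokines that signal through gp130 and the receptor chains that these cytokines bind. They were chosen by name from the 24982 genes of the deposited count table, and all 8 were found in it. Their measured values were not a criterion of the choice, but earlier results of these data were known when it was made. The 4 ligand genes were *Il6*, *Osm* (oncostatin M), *Lif* (leukemia inhibitory factor) and *Clcf1* (cardiotrophin-like cytokine factor 1). The 4 receptor genes were *Il6st*, which encodes gp130, *Il6ra*, *Osmr* and *Lifr*. All 8 were among the 13136 genes that passed the filter on low counts, *Osmr* only through its reads in WT mice.

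The genes were measured in macrophages sorted from the lamina propria of the colon and cecum of C57BL/6 mice, 1 library per mouse. All mice were 5 weeks old and carried *Cdcs1*, a colitis susceptibility locus. WT mice had no other change named in the labels, which do not say whether they were heterozygous for the deletions (n = 5), IL10RAKO mice were *Il10ra* -/- (n = 4), DKO mice were *Il10ra* -/- and *Ccr2* -/- (n = 4), and 1 CCR2KO mouse was *Ccr2* -/-. The deletions were carried by every cell of the animal, so a difference between genotypes can arise in the macrophages or around them. Live CD45+ cells without Ly6G, CD103 and Ly6C and with CD64, CD11b and MHCII were sorted. The comparison with WT asked how macrophages differed when IL-10 could not be sensed, and that of DKO with IL10RAKO mice asked whether CCR2, the receptor that brings monocytes out of the bone marrow, changed this.

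Cytokines of this family share gp130 as their signalling chain. IL-6 first binds the IL-6 receptor, either on the cell or after the receptor has been shed, whereas oncostatin M and LIF join gp130 with the oncostatin M receptor or the LIF receptor. The complexes activate Janus kinases and the transcription factor STAT3, which in turn induces the inhibitor SOCS3. In the inflamed intestine, myeloid cells are known as a source of IL-6 and oncostatin M, and stromal cells are known to carry the oncostatin M receptor.

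Differences were tested with edgeR's quasi-likelihood test in a single fit of 12 libraries (WT, IL10RAKO and DKO, n = 4 mice each), with Benjamini-Hochberg adjustment over all 13136 genes and a threshold of 0.05. Each of these libraries held between 13085287 and 21216468 counted reads. WT mouse 11 (12153000 reads), which the authors' normalized table does not include, and CCR2KO mouse 6, which has no replicate, are given as values only. Levels are given as CPM, counted reads scaled to a common library size with TMM factors, and 3 reads gave between 0.124 and 0.211 CPM, a floor that covers counting error only. The targeted genes followed the labels, with *Il10ra* at 284.5 ± 70.1 CPM in WT mice, 7.41 ± 2.67 in IL10RAKO mice and 5.31 ± 2.12 in DKO mice, and *Ccr2* at 593.1 ± 80.0, 475.8 ± 127.6 and 5.67 ± 1.22 CPM (mean ± SD, n = 4 each). The summed CPM of 12 macrophage markers, such as *Csf1r*, *Cd68* and *C1qa*, lay between 15941 and 28062 in all 12 libraries. Epithelial markers summed to 981.8 CPM in WT mouse 10 and to 2497 CPM in WT mouse 11, against 44.5 to 144.9 CPM in the other 3 WT mice, 37.3 to 188.6 CPM in the 8 mice without *Il10ra* and 283.2 CPM in the CCR2KO mouse. Ranges and means for WT mice cover the 4 tested mice unless WT mouse 11 is named.

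For *Il6* and *Lif*, the 250 bases before the transcription start are printed here because both genes rose in the mice without *Il10ra* and both windows held motifs of factors that act on inflammatory promoters. The sequences are those of RefSeq in build GRCm38.p6, which covered 6 of the 8 genes. Both strands were searched for GGG, any 2 bases and TTTCC (NF-kB), and for the letters TTNNGCAA (C/EBP), TGANTCA (AP-1), TGACGTCA (the cyclic AMP response element, CRE), its inner part GACGTCA, and TTCNNNGAA (the STAT motif GAS), and matches are in capitals. The window of *Il6* lies at chr5:30012864-30013113 on the plus strand and that of *Lif* at chr11:4257318-4257567 on the plus strand.
Il6: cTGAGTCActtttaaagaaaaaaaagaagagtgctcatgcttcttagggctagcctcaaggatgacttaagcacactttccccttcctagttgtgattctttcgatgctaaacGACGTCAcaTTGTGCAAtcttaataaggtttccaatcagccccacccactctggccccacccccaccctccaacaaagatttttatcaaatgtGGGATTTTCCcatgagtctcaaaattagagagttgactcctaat
Lif: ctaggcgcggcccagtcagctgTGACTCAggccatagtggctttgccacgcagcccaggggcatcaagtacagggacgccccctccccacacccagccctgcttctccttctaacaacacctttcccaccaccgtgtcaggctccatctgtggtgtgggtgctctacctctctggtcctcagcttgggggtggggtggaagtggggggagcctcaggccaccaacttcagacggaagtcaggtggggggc
The *Il6* window held 4 matches: TGAGTCA (AP-1) at -249 to -243 from the start, GACGTCA (CRE core) at -137 to -131, TTGTGCAA (C/EBP) at -128 to -121 and GGGATTTTCC (NF-kB) at -44 to -35. The *Lif* window held 1 match, TGACTCA (AP-1) at -228 to -222. Among 32851 such windows of mouse genes, the NF-kB letters were found in 1.41%, those of C/EBP in 9.56%, of AP-1 in 6.75%, of the CRE core in 2.78%, of the whole CRE in 1.55% and of GAS in 7.02%. The windows of *Il6ra*, *Il6st*, *Osmr* and *Lifr* held none of these letters, with 2 windows for *Lifr*. A match describes letters only, and binding was not measured.

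Ligand genes rose in mice without *Il10ra*, whereas *Lifr* fell. *Osmr* passed the filter only through its reads in WT mice, which favours a lower level in the other genotypes, so the counts and medians here are of the other 7 genes. Against WT mice, 5 of the 7 were called in IL10RAKO mice (4 higher and 1 lower), where 15.8% of all tested genes were called (8.70% higher and 7.10% lower). In DKO mice, 4 of 7 were called (3 higher and 1 lower), where 18.5% of all tested genes were called (9.23% higher and 9.22% lower). None of the 7 was called between DKO and IL10RAKO mice by edgeR, where 0.0457% of all tested genes were called (0.0152% higher and 0.0305% lower). An unadjusted p under 0.05 was found for 5 of them in IL10RAKO against WT mice (29.1% of all genes), for 6 in DKO against WT mice (31.3%) and for 1, *Lifr*, between DKO and IL10RAKO mice (2.95%). DESeq2 called 5 (20% of all genes), 6 (22.9%) and 1 (0.183%) in these 3 comparisons. The median log2 fold change of the 7 genes was 0.93 in IL10RAKO, 0.71 in DKO and -0.22 in DKO over IL10RAKO mice, against -0.07, -0.06 and -0.01 over all tested genes. Groups did not overlap for 5 of the 7 between IL10RAKO and WT (18.2% of all genes), for 6 between DKO and WT (22.2%) and for 1 between DKO and IL10RAKO (2.41%). The 2 comparisons with WT share their 4 WT mice.

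**Figure D1:**
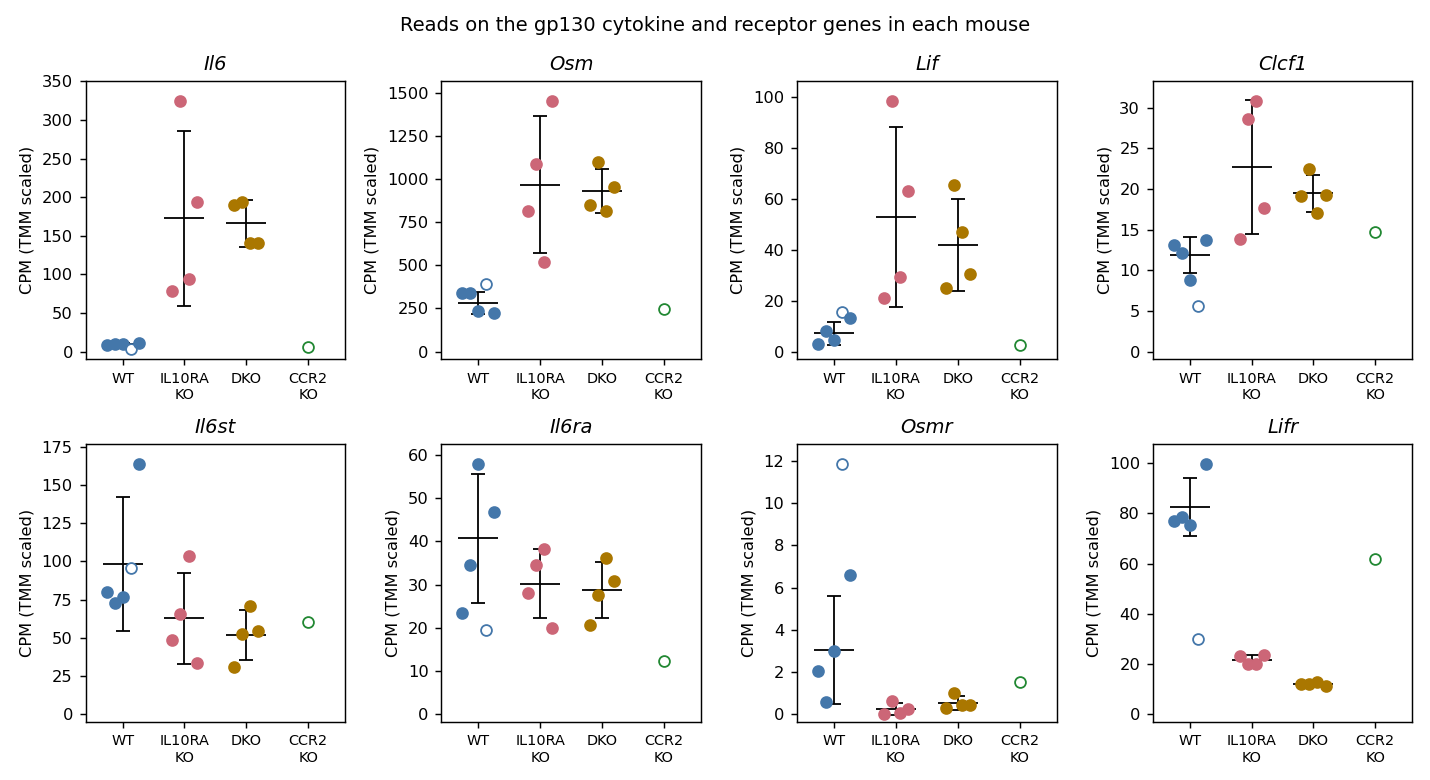
CPM of each of the 8 genes in each mouse, with filled points for the 12 tested libraries, open points for WT mouse 11 and CCR2KO mouse 6, and bars for the mean and SD of 4 mice. *Il6* lay at 11.4 CPM or less in every WT mouse and at 77.9 CPM or more in every IL10RAKO and DKO mouse, and the 4 DKO mice lay below the 4 IL10RAKO mice for *Lifr*.

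*Il6* encodes the cytokine that gave the family its name. The gene (listed as IL6, GRCm38 chromosome 5, 30013114 to 30019981, plus strand) was at 9.02, 9.26, 9.32 and 11.4 CPM in WT mice 4, 5, 10 and 13, and at 3.15 CPM in WT mouse 11. It was at 77.9, 324.4, 93.9 and 193.5 CPM in IL10RAKO mice 1, 2, 7 and 8, and at 189.8, 194.3, 140.0 and 140.0 CPM in DKO mice 3, 9, 12 and 14. All 8 mice without *Il10ra* thus lay above all 5 WT mice, and IL10RAKO mice spread over a wider range (4.17-fold from lowest to highest) than DKO mice (1.39-fold). *Il6* rose with a log2 fold change of 4.15 ± 0.39 (SE) in IL10RAKO mice (17.7-fold, edgeR adjusted p = 7.94e-06) and of 4.09 ± 0.39 in DKO mice (17.0-fold, edgeR adjusted p = 8.17e-06). The CCR2KO mouse, at 6.42 CPM, lay between WT mouse 11 and the other WT mice.

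*Osm* encodes oncostatin M, which acts on stromal and endothelial cells. It had the highest level of the 8 genes in every genotype and was abundant already in WT mice. Its gene (listed as OSM, chromosome 11, 4236420 to 4241026, plus strand) lies 16530 bases before *Lif* on the same strand. *Osm* was at 336.9, 338.6, 233.6 and 221.8 CPM in the WT mice, at 815.8, 1086, 516.8 and 1452 CPM in the IL10RAKO mice and at 849.1, 1099, 817.1 and 951.2 CPM in the DKO mice, in the same order of mice as above. The lowest of the 8 mice without *Il10ra*, IL10RAKO mouse 7, was above the highest WT mouse, WT mouse 11 with 391.7 CPM, and the CCR2KO mouse, at 245.0 CPM, lay among the WT mice. The log2 fold change was 1.77 ± 0.27 in IL10RAKO mice (3.42-fold, edgeR adjusted p = 4.32e-04) and 1.72 ± 0.27 in DKO mice (3.29-fold, edgeR adjusted p = 4.86e-04).

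*Lif* encodes a cytokine known for effects on stem cells and on acute-phase responses. The gene (listed as LIF, chromosome 11, 4257557 to 4272514, plus strand) was at 3.01, 8.15, 4.43 and 13.1 CPM in WT mice 4, 5, 10 and 13 and at 15.5 CPM in WT mouse 11. It reached 20.9, 98.6, 29.5 and 63.1 CPM in IL10RAKO mice 1, 2, 7 and 8, and 25.2, 65.4, 47.1 and 30.6 CPM in DKO mice 3, 9, 12 and 14. Groups did not overlap with WT, but within each genotype *Lif* differed more from mouse to mouse than *Osm* did. The log2 fold change was 2.90 ± 0.54 in IL10RAKO mice (7.47-fold, edgeR adjusted p = 0.00196) and 2.57 ± 0.53 in DKO mice (5.92-fold, edgeR adjusted p = 0.00384). In the CCR2KO mouse it was at 2.57 CPM, below every WT mouse.

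*Clcf1* encodes a ligand of the ciliary neurotrophic factor receptor that stimulates B cells. Its difference was the smallest of the 4 ligands. The gene (listed as CLCF1, chromosome 19, 4214238 to 4223490, plus strand) shares exon bases with the protein-coding gene AC109138.7 on the same strand, which is not listed in the count table, so reads of the pair cannot be told apart. *Clcf1* was at 13.1, 12.1, 8.74 and 13.7 CPM in WT mice, at 13.8, 28.6, 30.8 and 17.7 CPM in IL10RAKO mice and at 19.1, 22.5, 17.0 and 19.2 CPM in DKO mice. In WT mouse 11 it was at 5.64 CPM. IL10RAKO mouse 1 lay just above the highest WT mouse, and the CCR2KO mouse, at 14.7 CPM, lay above IL10RAKO mouse 1. The log2 fold change was 0.93 ± 0.25 in IL10RAKO mice (edgeR adjusted p = 0.0219) and 0.71 ± 0.25 in DKO mice (edgeR adjusted p = 0.0672), the latter not called. The call in IL10RAKO mice was lost without IL10RAKO mouse 2 or 7 or WT mouse 10, with a highest edgeR adjusted p of 0.0708 on leaving out single mice.

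**Figure D2:**
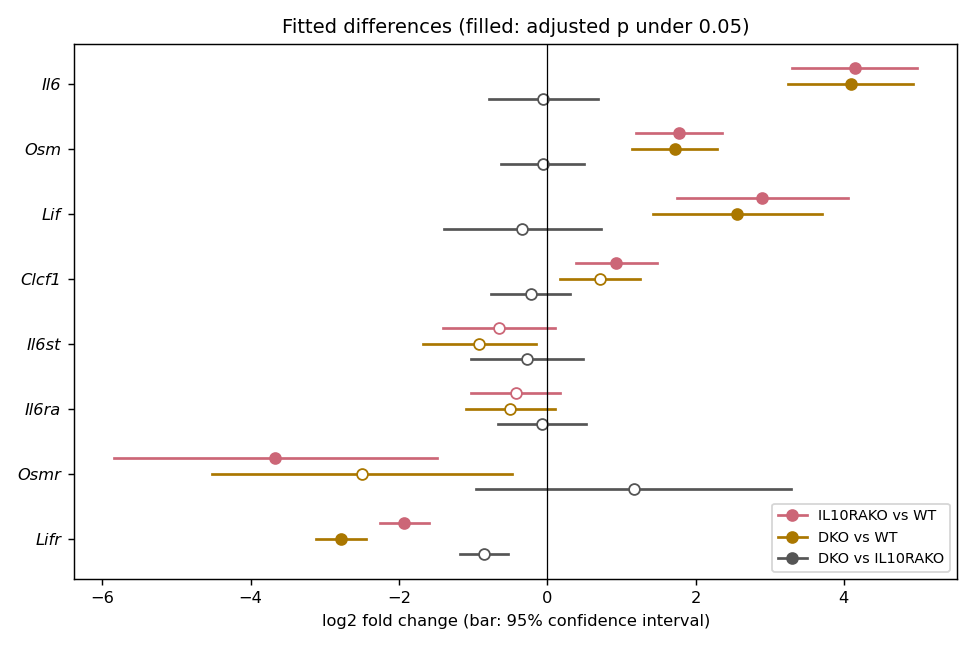
Log2 fold changes of the 8 genes in 3 comparisons, with 95% confidence intervals as bars and filled points where the edgeR adjusted p was under 0.05. The intervals of *Il6*, *Osm*, *Lif* and *Lifr* exclude 0 in both comparisons with WT, and that of *Lifr* also between DKO and IL10RAKO (-1.18 to -0.53).

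*Lifr* encodes the chain that LIF joins to gp130. *Lifr* fell most clearly among the receptor genes and was the fourth of all 13136 genes by p in DKO against WT mice. The gene (listed as LIFR, chromosome 15, 7090614 to 7197489, plus strand) was at 77.2, 78.5, 75.3 and 99.8 CPM in WT mice 4, 5, 10 and 13. It was at 23.4, 19.9, 19.9 and 23.7 CPM in IL10RAKO mice 1, 2, 7 and 8, and at 12.0, 12.1, 12.7 and 11.4 CPM in DKO mice 3, 9, 12 and 14. These levels rested on 1339 to 1818 reads in WT mice, 320 to 394 in IL10RAKO mice and 181 to 230 in DKO mice, and the 3 groups did not overlap. *Lifr* was 3.81-fold lower in IL10RAKO mice (log2 fold change -1.93 ± 0.15, edgeR adjusted p = 2.29e-06) and 6.87-fold lower in DKO mice (-2.78 ± 0.16, edgeR adjusted p = 1.46e-07). WT mouse 11, at 29.8 CPM, lay nearer to the IL10RAKO mice than to the other WT mice, and with it in the fit the log2 fold changes were -1.73 and -2.58. The CCR2KO mouse was at 61.9 CPM, below the 4 tested WT mice and above every mouse without *Il10ra*.

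*Osmr* encodes the chain that oncostatin M joins to gp130, and it was hardly detected. The gene (listed as OSMR, chromosome 15, 6813577 to 6874969, minus strand, 215644 bases from *Lifr*) had 43, 10, 72 and 99 reads in WT mice 4, 5, 10 and 13, which is 2.05, 0.586, 2.98 and 6.59 CPM, and 162 reads (11.9 CPM) in WT mouse 11. It had 0, 10, 1 and 4 reads in IL10RAKO mice 1, 2, 7 and 8, and 5, 16, 6 and 9 reads in DKO mice 3, 9, 12 and 14. IL10RAKO mouse 2 (0.623 CPM) and DKO mouse 9 (0.996 CPM) lay above WT mouse 5, so the groups overlapped. The CCR2KO mouse had 31 reads (1.53 CPM). Since *Osmr* passed the filter through the WT mice alone, a lower level in the other genotypes was favoured, and its test is given as a value without weight. The log2 fold change was -3.67 ± 1.02 in IL10RAKO mice (edgeR adjusted p = 0.0230, and 0.0296 with no filter) and -2.50 ± 0.94 in DKO mice (edgeR adjusted p = 0.0804), the latter not called. The call in IL10RAKO mice was lost without IL10RAKO mouse 1, 7 or 8 or without WT mouse 13, with adjusted p up to 0.0775 from edgeR.

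*Il6st* encodes gp130 itself, and no difference was called. The gene (listed as IL6ST, chromosome 13, 112464070 to 112510086, plus strand) was at 79.9, 72.5, 76.5 and 163.7 CPM in WT mice, with WT mouse 13 far above the rest, at 48.6, 65.2, 103.3 and 33.6 CPM in IL10RAKO mice and at 30.8, 52.4, 70.5 and 54.2 CPM in DKO mice. All 4 DKO mice lay below all WT mice, while IL10RAKO mouse 7 lay above 3 of the 4. WT mouse 11 was at 95.9 CPM, and the CCR2KO mouse, at 60.4 CPM, also lay below all WT mice. The log2 fold change was -0.65 ± 0.35 in IL10RAKO (95% confidence interval -1.40 to 0.11, edgeR adjusted p = 0.245) and -0.92 ± 0.35 in DKO mice (-1.68 to -0.16, edgeR adjusted p = 0.0892). *Il6ra*, the gene of the IL-6 binding chain (listed as IL6RA, chromosome 3, 89864059 to 89913196, minus strand), overlaps the antisense gene *Gm42809*, and the counting is not stated to use strand, so reads of the pair cannot be told apart. *Il6ra* was at 23.4, 34.4, 57.9 and 46.9 CPM in WT mice, at 28.1, 34.6, 38.2 and 19.9 CPM in IL10RAKO mice and at 20.6, 27.6, 36.2 and 30.8 CPM in DKO mice. WT mouse 11 (19.6 CPM) and the CCR2KO mouse (12.4 CPM), both with *Il10ra*, lay below all 12 tested mice. The groups overlapped, with log2 fold changes of -0.43 ± 0.28 (-1.03 to 0.17, edgeR adjusted p = 0.335) and -0.50 ± 0.28 (-1.10 to 0.10, edgeR adjusted p = 0.245).

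Levels of different genes were compared as CPM per kb of exon, since longer transcripts give more reads. In WT mice the order was *Osm* (124.4), *Il6st* (8.84), *Lifr* (7.67), *Il6ra* (4.70), *Il6* (4.01), *Clcf1* (3.13), *Lif* (1.65) and *Osmr* (0.252). The ranges over mice overlapped between *Il6st* and *Lifr*, between *Il6ra* and *Il6* and between *Clcf1* and *Lif*. In IL10RAKO mice it was *Osm* (425.9), *Il6* (71.0), *Lif* (12.2), *Clcf1* (5.97), *Il6st* (5.64), *Il6ra* (3.49), *Lifr* (2.02) and *Osmr* (0.0194). DKO mice had the same order, with *Osm* at 409.0, *Il6* at 68.4, *Lif* at 9.67 and *Lifr* at 1.12 CPM per kb. In both genotypes without *Il10ra* the ranges of neighbours from *Lif* to *Il6ra* overlapped, so that *Osm*, *Il6*, *Lifr* and *Osmr* were the genes with a distinct place. *Il6* thus stood below the receptor genes *Il6st*, *Lifr* and *Il6ra* in the order for WT mice and above all 4 receptor genes in IL10RAKO and DKO mice.

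The 4 ligands summed to 133.2 ± 27.5 CPM per kb in WT (108.9 to 157.9), 515.1 ± 211.2 in IL10RAKO (281.0 to 737.9) and 492.1 ± 65.9 in DKO mice (432.6 to 584.8, SD, n = 4 each). *Osm* made up 93.1 ± 2.40% of this sum in WT mice, 83.0 ± 6.76% in IL10RAKO mice and 83.1 ± 2.04% in DKO mice, and *Il6* made up 3.15 ± 0.928%, 13.4 ± 5.50% and 13.9 ± 2.14%. The 4 receptor genes summed to 21.5 ± 5.89 CPM per kb in WT (17.2 to 30.0), 11.2 ± 3.41 in IL10RAKO (7.54 to 15.6) and 9.17 ± 2.24 in DKO mice (6.29 to 11.8). *Lifr* made up 36.7 ± 5.30% of the receptor sum in WT mice, 19.7 ± 7.57% in IL10RAKO mice and 12.8 ± 3.39% in DKO mice, while the share of *Il6ra* was 22.1 ± 7.28%, 31.5 ± 2.56% and 36.5 ± 1.38%. Shares within a library do not depend on how libraries are scaled to each other, and the ranges of the *Lifr* share in the 4 tested WT mice (30.9 to 41.6%) did not overlap those in IL10RAKO (11.9 to 29.1%) or DKO mice (10.0 to 17.7%). WT mouse 11, with a *Lifr* share of 18.9% and a receptor sum of 14.7 CPM per kb, lay within the IL10RAKO range for both.

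**Figure D3:**
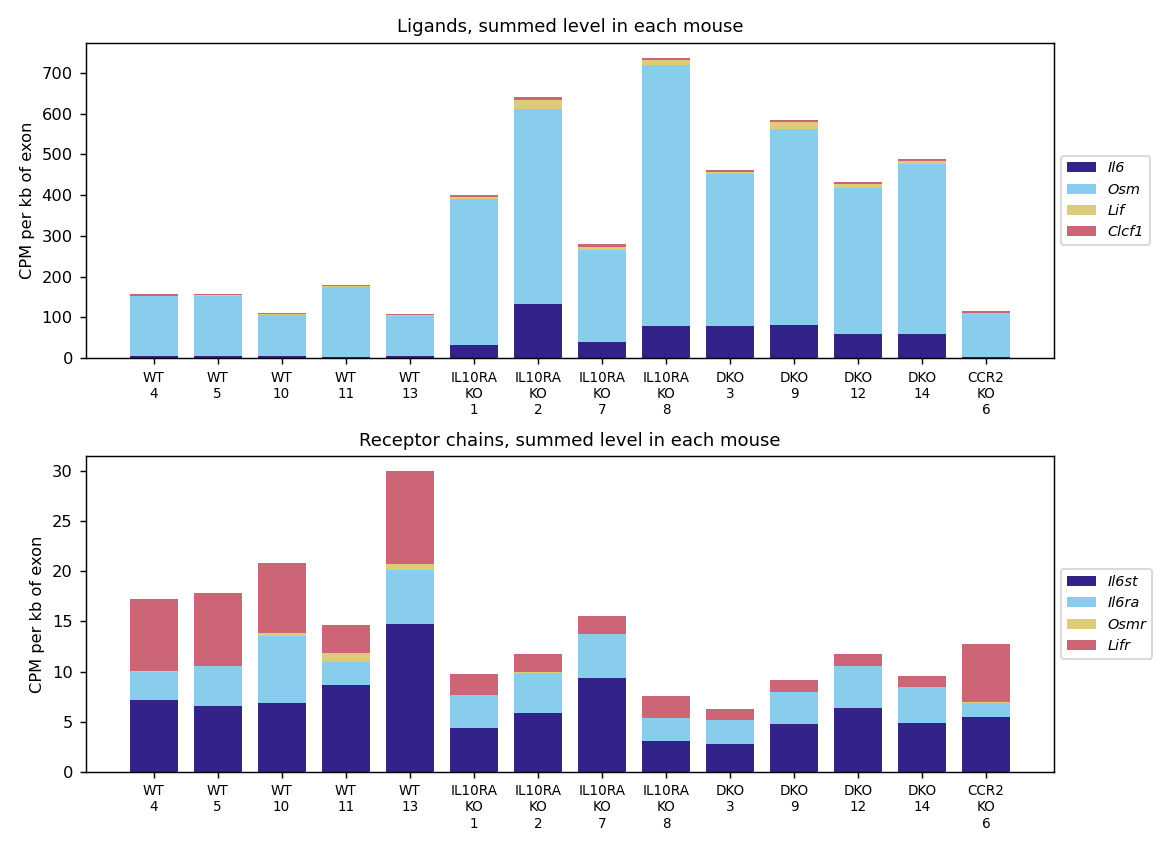
Stacked bars give the level of the 4 ligand genes (top) and the 4 receptor genes (bottom) in CPM per kb of exon for each of the 14 mice, named by genotype and mouse number. *Osm* fills most of every ligand bar, the ligand bars of the 8 mice without *Il10ra* reach 281.0 to 737.9, and *Lifr* takes 30.9 to 41.6% of the receptor bar in the 4 tested WT mice.

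Set against gp130 within the same library, *Lifr* gave 93.8 ± 21.3 length-scaled reads per 100 of *Il6st* in WT mice, 43.4 ± 23.0 in IL10RAKO mice and 26.02 ± 9.64 in DKO mice (SD, n = 4). The ranges were 62.8 to 111.5, 19.9 to 72.6 and 18.6 to 40.1, so that the IL10RAKO mice overlapped both other genotypes. *Il6ra* gave 58.1 ± 28.4, 66.5 ± 13.1 and 73.2 ± 9.19 per 100 of *Il6st*, ranges that overlapped. *Osmr* gave 2.59 ± 1.37, 0.410 ± 0.453 and 0.967 ± 0.531. In the CCR2KO mouse the value for *Lifr* was 105.5, and in WT mouse 11 it was 32.02.

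Between DKO and IL10RAKO mice, *Lifr* stood apart from the other members, with 21.7 ± 2.07 CPM in IL10RAKO mice and 12.0 ± 0.554 CPM in DKO mice. The log2 fold change was -0.85 ± 0.15 (95% confidence interval -1.18 to -0.53, unadjusted p = 5.89e-05 from edgeR), the seventh smallest p of 13136 genes, but the edgeR adjusted p was 0.109 and the difference was not called. On leaving out single mice the edgeR adjusted p ranged from 0.0710 to 0.526, while DESeq2 called it with an adjusted p of 6.18e-04. For the ligands the fitted log2 differences were -0.05 for *Il6* (interval -0.79 to 0.68), -0.06 for *Osm* (-0.62 to 0.50), -0.34 for *Lif* (-1.39 to 0.72) and -0.22 for *Clcf1* (-0.76 to 0.31). The intervals were -1.03 to 0.48 for *Il6st*, -0.67 to 0.53 for *Il6ra* and -0.96 to 3.29 for *Osmr*. Differences within these intervals were not excluded with 4 mice per genotype.

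The order of mice was compared between ligands over the 8 mice without *Il10ra*, on the scale of log2(CPM + 1). IL10RAKO mouse 2 was the highest of the 8 for *Il6* and *Lif*, and IL10RAKO mouse 1 was the lowest for both. *Il6* and *Lif* had a Pearson r of 0.81 (exact permutation p = 0.0126, adjusted over the 6 ligand pairs 0.0753) and a Spearman rho of 0.86 (exact permutation p = 0.0107, adjusted 0.0643). Without the 2 mice farthest from the median of *Il6*, r was 0.48, so over the 8 mice the relation rested on those 2. Each of the 8 mice was also left out in turn. The highest r came without DKO mouse 3, at 0.96 over the other 7 mice (exact permutation p = 3.97e-04, adjusted 0.00238). It stayed at 0.88 when the 2 farthest of them were left out. Leaving out any other mouse gave r of 0.67 to 0.82. The case without DKO mouse 3 is named for its r, so its p carries no weight. Within IL10RAKO mice r was 0.995 and within DKO mice 0.14 (n = 4 each, not tested). *Il6* and *Osm* had r = 0.66 and rho = 0.81 (exact permutation p = 0.0774 and 0.0218, adjusted 0.182 and 0.0653, r = 0.85 without the 2 farthest mice), and *Osm* and *Lif* had r = 0.62 and rho = 0.74 (exact permutation p = 0.0911 and 0.0458, adjusted 0.182 and 0.0917, r = 0.78 without the 2 farthest mice). Pairs with *Clcf1* had r between -0.28 and 0.42, and each changed sign without the 2 farthest mice. With *Il6* it went from 0.37 to -0.65, with *Osm* from -0.28 to 0.87 and with *Lif* from 0.42 to -0.28. With all 8 mice, none of the 6 pairs passed after adjustment, and 1 had an unadjusted p under 0.05 by Pearson's r.

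Over all 12 libraries, the genes whose log2 CPM was most like that of each member were as follows, as a description without a test, since the 12 points share the difference between genotypes. *Il6* was most like *Procr* (r = 0.99, and 0.91 after genotype means were removed), *Ccl5* (0.99) and *Inhba* (0.99). *Osm* was most like *Nfil3* (r = 0.99, and 0.94 after removal of genotype means), *Mif* and *Pdk1*, and *Lif* was most like *Rnf149* (0.98, and 0.95), *Riok3* and *Olr1*. *Clcf1* was most like *Oasl1* (0.94, and 0.94), *Tbc1d4* and *Csrnp1*. For *Lifr* the nearest genes were *F13a1* (r = 0.98), *Clec4b1* (0.97) and *Thbs3* (0.97), but within genotypes r was 0.35, -0.06 and 0.26, so this likeness followed the difference between genotypes. *Osmr* was most like *Jam2*, *Ano1* and *Lrrc3* (r = 0.91 to 0.92), *Il6st* most like *Sufu*, *Vav2* and *Pcyt1a* (r = 0.95) and *Il6ra* most like *Edc4*, *Hectd4* and *Zfp445* (r = 0.90 to 0.93).

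Markers of other cells differed between the genotypes as well, where 15.8% and 18.5% of all tested genes were called in IL10RAKO and DKO mice against WT. Fibroblast markers (*Col1a1*, *Col1a2*, *Col3a1*, *Dcn*, *Lum*, *Pdgfra*, *Pdgfrb* and *Dpt*) summed to 313.2 to 591.0 CPM in WT mice, 21.7 to 58.6 in IL10RAKO mice and 20.05 to 73.5 in DKO mice, and all 8 were called lower in both comparisons with WT. Of the smooth muscle markers, 4 of 4 tested were lower in both, and of 6 endothelial markers 3 and 4 were lower. These counts include *Pdgfra* (1 to 9 reads in IL10RAKO and 1 to 15 in DKO mice), *Actg2*, *Cnn1* and *Emcn*. *Cnn1* had 5 to 26 reads in IL10RAKO mice and 2 to 11 in DKO mice. Like *Osmr*, they passed the filter only through their reads in WT mice, which favours a lower level elsewhere, so their calls carry no weight. The fibroblast, smooth muscle and endothelial markers moved in the same direction as *Osmr* and *Lifr*, and their part in the lower levels of both was not tested. Among the mice with *Il10ra*, WT mouse 13 had 580.2 CPM of fibroblast markers and the highest *Osmr* (6.59 CPM) and *Lifr* (99.8 CPM) of the tested mice, and WT mice 4 and 10 had 313.2 and 325.0 CPM with *Osmr* at 2.05 and 2.98 CPM. WT mouse 5 had 591.0 CPM with *Osmr* at 0.586 CPM, the CCR2KO mouse 697.5 CPM with *Osmr* at 1.53 CPM, and WT mouse 11 270.9 CPM with *Osmr* at 11.9 CPM. Smooth muscle markers, *Myh11* included, summed to 25.5, 23.9, 50.9 and 115.7 CPM in WT mice 4, 5, 10 and 13. They summed to 79.0 CPM in WT mouse 11 and 42.9 CPM in the CCR2KO mouse. Endothelial markers summed to 126.7, 82.4, 242.7 and 170.0 CPM in WT mice 4, 5, 10 and 13. Their sum was 129.6 CPM in WT mouse 11 and 106.2 CPM in the CCR2KO mouse. In bulk libraries such as these, fewer cells of a type and less RNA per cell cannot be told apart.

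**Figure D4:**
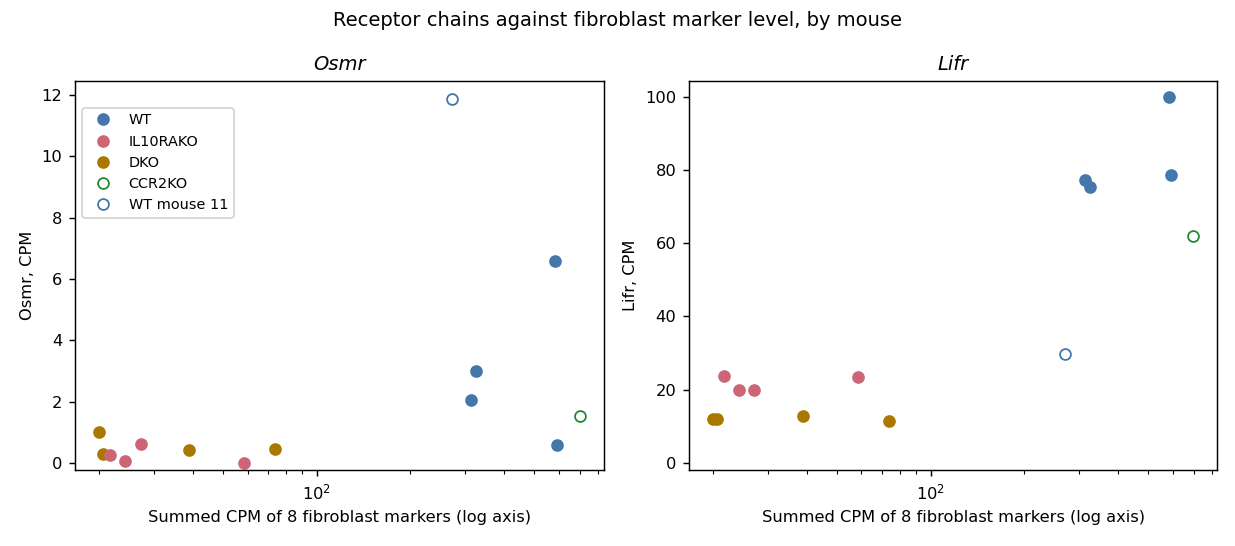
CPM of *Osmr* (left) and *Lifr* (right) against the summed CPM of 8 fibroblast markers on a log axis, 1 point per mouse, with open points for WT mouse 11 and CCR2KO mouse 6. The 8 mice without *Il10ra* lie at 73.5 CPM of fibroblast markers or less, and the DKO and IL10RAKO mice form 2 levels of *Lifr* over the same range of fibroblast markers.

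Monocyte markers were also higher in the mice without *Il10ra*. *Ly6c2*, *Plac8*, *Hp* and *Chil3* summed to 92.8 to 125.4 CPM in WT mice, 302.3 to 1267 in IL10RAKO mice and 581.2 to 731.7 in DKO mice, and 3 of the 4 (*Ly6c2*, *Plac8* and *Hp*) were higher in both comparisons. Among the 8 mice without *Il10ra*, IL10RAKO mouse 7 was lowest for this sum and for *Osm*, and IL10RAKO mouse 2 was highest for the sum and for *Il6* and *Lif*, whereas IL10RAKO mouse 1, the lowest for *Il6* and *Lif*, had the third highest sum (837.5 CPM). The CCR2KO mouse had 289.5 CPM of monocyte markers with *Il6* at 6.42 CPM. Neutrophil markers summed to 74.4 to 121.7, 141.7 to 324.2 and 204.0 to 281.8 CPM, most of it *Csf3r* (means of 87.3, 197.7 and 181.3 CPM). *Csf3r* and *Mmp8* were higher in both. *S100a8*, *S100a9* and *Cxcr2* passed the filter only through mice without *Il10ra*, which favours a higher level there, so their calls carry no weight. *S100a9* had 0 reads in all 4 WT mice. The defining marker *Ly6g* was at 0.203 ± 0.364 CPM in IL10RAKO mice and 0.385 ± 0.252 CPM in DKO mice. The part of these cells in the rise of the ligands was not tested. Among 6 dendritic cell markers 3 and 2 were higher, including *Clec9a*, which passed the filter only through mice without *Il10ra*. Of the mast cell markers, 1 of 2 tested (*Kit*) was higher in both, and *Cpa3* was not called (0.528, 0.304 and 0.933 CPM on average). *Ms4a2* and *Cma1* were below the filter, and *Mcpt1* and *Mcpt2* had 0 reads in all mice without *Il10ra*. Of the T and NK cell list only *Cd4* was called, lower in both. *Cd4* was at 111.3 CPM in WT mice, against 15.9 CPM for *Lck*, the next highest of the list, and 2.60 CPM for *Cd3e*. The paper describes CD4 on subsets of mature intestinal macrophages, so the fall of *Cd4* was not read as one of T cells. No B cell or epithelial marker was called. Of 12 macrophage markers, *Fcgr1* was higher in IL10RAKO mice, and *Mertk* was higher and *Adgre1* and *Cx3cr1* lower in DKO mice.

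The other genes of the pathway were taken from lists by role. Of 8 other ligand genes of the family, 3 were tested, and *Il27* rose in both genotypes. *Il27*, the subunit of interleukin-27 that pairs with EBI3, was at 3.30 ± 0.995 CPM in WT mice, 25.4 ± 9.59 in IL10RAKO mice and 19.3 ± 2.78 in DKO mice (log2 fold change 2.93 and 2.54, edgeR adjusted p = 1.40e-05 and 3.98e-05). *Il12a*, whose product p35 pairs with EBI3 in interleukin-35, was at 1.54 ± 1.51, 18.6 ± 9.30 and 24.1 ± 2.95 CPM. It had 0 to 53 reads in WT mice, 172 to 500 in IL10RAKO mice and 380 to 451 in DKO mice. Since *Il12a* passed the filter only through mice in which it was high, neither a fold nor a call is given for it. *Ebi3* itself was not called (0.45 and 0.24). *Il11*, *Cntf*, *Ctf1* and *Il31* were below the filter and *Ctf2* had no reads in the 12 libraries.

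Of 4 other receptor genes, 3 were tested. *Il31ra*, a receptor chain for interleukin-31, had 0 reads in all 4 WT mice, 0 to 14 in IL10RAKO mice and 9 to 24 in DKO mice. It passed the filter only through mice in which it was high, so neither a fold nor a call is given for it. *Il11ra1* (log2 fold change -0.11 and -0.09) and *Il27ra* (-0.36 and -0.34) were not called, and *Cntfr* was below the filter.

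The genes that act after the receptors (Janus kinases, STAT factors, *Ptpn11*, *Gab1* and *Gab2*) differed less than the ligands. Of 9 genes, 1 rose in IL10RAKO mice (8.70% of all tested genes) and 2 in DKO mice (9.23%). None fell (7.10% and 9.22% of all tested genes), and the medians of their log2 fold changes were 0.25 and 0.20. *Jak2*, the kinase, rose by 1.28 and 1.38 on the log2 scale. *Stat3*, the factor through which gp130 chiefly acts, had log2 fold changes of 0.45 (edgeR adjusted p = 0.141) and 0.60 (edgeR adjusted p = 0.0458), so it was called in DKO mice.

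Among the feedback inhibitors, 4 of 8 were higher and 1 lower in IL10RAKO mice (8.70% and 7.10% of all tested genes). In DKO mice 5 were higher (9.23% of all tested genes). *Socs1*, an inhibitor of Janus kinases, rose from 15.7 ± 7.04 CPM to 77.5 ± 34.9 and 91.7 ± 25.6 CPM (2.30 and 2.54, edgeR adjusted p = 6.01e-04 and 2.50e-04). *Cish* (1.97 and 1.71), *Socs2* (1.22 and 1.58) and the phosphatase gene *Ptpn2* (0.97 and 0.80) rose in both genotypes. *Socs3*, the inhibitor that binds gp130, was already at 1847 ± 274.0 CPM in WT mice and had log2 fold changes of 0.45 (edgeR adjusted p = 0.0861) and 0.56 (edgeR adjusted p = 0.0313). *Pias3*, an inhibitor of STAT3, fell in IL10RAKO mice (-1.01, edgeR adjusted p = 0.0296).

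Of 4 genes for shedding of receptors such as the IL-6 receptor, the 2 inactive rhomboid genes went opposite ways. *Rhbdf2*, which carries the protease ADAM17 to the surface in myeloid cells, rose by 1.17 and 1.35 on the log2 scale (edgeR adjusted p = 0.00313 and 9.52e-04), and *Rhbdf1*, its relative outside the blood lineages, fell by 2.49 and 2.73 (edgeR adjusted p = 0.00159 and 7.43e-04). *Rhbdf1* thus moved in the same direction as the fibroblast markers, whose part in its fall was not tested. *Adam17* was called in DKO mice (0.62, edgeR adjusted p = 0.0318) and stood at 0.51 in IL10RAKO mice (edgeR adjusted p = 0.0824).

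Of 12 genes that act on the *Il6* promoter or mRNA, 3 rose and 1 fell in each genotype, with medians of 0.47 and 0.41. Of all tested genes, 8.70% rose and 7.10% fell in IL10RAKO mice, and 9.23% rose and 9.22% fell in DKO mice. *Cebpb*, whose product recognises C/EBP letters such as those in the *Il6* window, rose by 1.24 and 1.27 on the log2 scale (edgeR adjusted p = 0.00594 and 0.00459), whereas its relative *Cebpd* fell by 0.80 and 1.18 (edgeR adjusted p = 0.0157 and 0.00109). *Zc3h12c*, of the family of the RNase Regnase-1, rose by 2.22 and 2.31, and *Zc3h12a*, Regnase-1 itself, was not called (0.48 and 0.79). *Nfkbiz*, a cofactor of NF-kB for *Il6*, was called in IL10RAKO mice (0.89, edgeR adjusted p = 0.0131) and had 0.63 in DKO mice (edgeR adjusted p = 0.0614), and the NF-kB subunit gene *Rela* was called in DKO mice (0.50, edgeR adjusted p = 0.0497).

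Of 14 targets of STAT3, 5 rose and 1 fell in IL10RAKO mice (8.70% and 7.10% of all tested genes). In DKO mice 6 rose and 1 fell (9.23% and 9.22% of all tested genes). The medians of these targets were 0.29 and 0.48. *Hif1a*, a regulator of the response to low oxygen, rose most (2.04 and 2.09, edgeR adjusted p = 6.68e-06 and 4.86e-06), and *Icam1* (0.91 and 0.82), *Bcl3* (0.80 and 0.70) and *Il4ra* (0.75 and 0.62) also rose in both genotypes. *Mcl1* was called in IL10RAKO mice (0.72), and *Pim1* (0.88) and *Socs3* in DKO mice. *Cebpd* fell in both, and *Junb*, *Fos*, *Myc*, *Bcl6*, *Timp1* and *Ccnd1* were called in neither. *Socs3* and *Cebpd* stand in 2 lists each. No gene of these pathway lists was called between DKO and IL10RAKO mice.

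**Figure D5:**
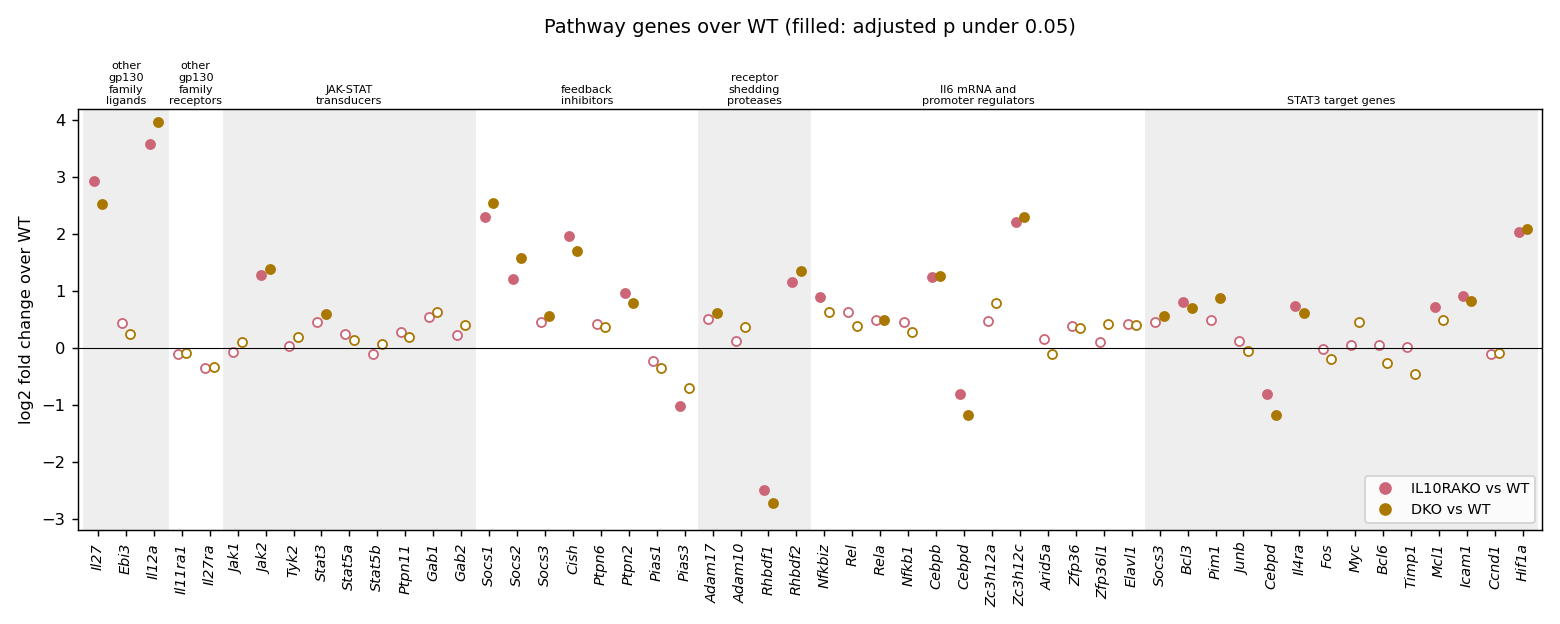
Log2 fold changes over WT of the tested pathway genes in IL10RAKO mice and DKO mice, grouped by role, with filled points where the edgeR adjusted p was under 0.05. *Il31ra*, which had no reads in the 4 WT mice, is not drawn. *Il12a*, which passed the filter only through mice in which it was high, is drawn without weight. *Il12a*, *Il27* and *Socs1* lie highest and *Rhbdf1* lies lowest in both comparisons.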

How the data were processed

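Macrophages were sorted from lamina propria and SmartSeq v4 cDNA was sequenced with 1 library per mouse. Per the labels, the authors processed reads with bcl2fastq 2.20, STAR 2.5.1b (mm10) and edgeR 3.34.0. They deposited raw counts of reads per gene for 14 libraries, without normalization, and for 12 of them also scores, namely the pseudocounts by which edgeR brings libraries to a common size. Annotation and strand setting are not given in the sources used here. Genotypes were taken from the labels, and 0 per-sample columns were left unused. The labels give no batch or litter and do not say whether replicate mice shared a litter.

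Counts were analysed with edgeR 4.0.16 in R 4.3.3 (filterByExpr by genotype, minimum count 10, TMM, glmQLFit and glmQLFTest with the deviance of edgeR 3), with Benjamini-Hochberg adjustment of P-values over 13136 genes. Positions and exon lengths came from GENCODE vM21. Correlations used log2(CPM + 1) and exact two-sided permutation tests, and likeness used log2 CPM with a prior count of 2. The 8 members, the 21 gene lists (pathway roles and markers) and the alternatives were chosen with earlier results of these data known. Genes were named by rule: all members, the targeted genes, from each list up to 4 genes per direction with the smallest adjusted p among those called against WT, and the 3 genes most like each member. Pathway genes of the lists that were not called, and a few markers, are named in addition, some of them after their values had been seen. Some genes of the lists are not reported here and were left out of the counts, medians and sums of their lists. Alternatives were DESeq2 1.42.0, other scalings and filters, fits of 2 genotypes or 13 libraries, and leaving out each mouse. Added after the data were seen were a fit without WT mice 10 and 13 and one on the deposited scores (pseudocounts).

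In simulated data for IL10RAKO against WT, with 200 of 13136 genes changed, 1.5% of them were called when the change was 1.5-fold, 36.5% when it was 2-fold and 76.5% when it was 4-fold. Replicates differed by a chi-square per degree of freedom of 31.8 or more, so no library was a duplicate. Reads carried no molecular identifiers, so limits from 3 reads cover counting error only, and p-values measure the spread between these mice.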

Additional observations from a re-analysis of the deposited data

Results flagged for a closer look

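In 32 overlapping groups of 4 or 5 mice (8 genes in WT, WT with mouse 11, IL10RAKO and DKO), the highest or lowest mouse was compared with the others by Dixon's criterion on log2(CPM + 1), which chance passes in about 1 of 20 groups. WT mouse 13 stood above the other tested WT mice for *Il6* (3.63), *Il6st* (7.36) and *Lifr* (6.66). WT mouse 11 stood below the other 4 WT mice for *Il6* (2.05) and *Lifr* (4.95). The CCR2KO mouse, which entered no test, had *Clcf1* at 14.7 CPM, above all 5 WT mice.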

How the results depend on the processing

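*Il6*, *Osm*, *Lif* and *Lifr* were called in the same direction against WT in IL10RAKO and DKO mice under every alternative, with edgeR and DESeq2 adjusted p of at most 0.0143, that highest value for *Lif* in DKO mice without WT mice 10 and 13. No paired analysis was possible because the genotypes hold different mice and their numbers were given in accession order. Library totals without TMM shifted the median of all genes to -0.38 in IL10RAKO and -0.32 in DKO mice, with 651 genes higher and 2084 lower, and 748 higher and 2140 lower, against 1143 and 933, and 1213 and 1211, with TMM. Under that scaling the calls of these 4 members were kept. The deposited pseudocounts, on which no test was run, kept the direction of all 8 members in all 3 comparisons.

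Without WT mice 10 and 13, 1280 and 1486 genes were called in IL10RAKO and DKO mice instead of 2076 and 2424, and the log2 fold change of *Il6ra* turned to 0.073 and 0.014. Without them *Osmr* was not called in IL10RAKO mice (-2.47), nor was *Clcf1* (0.86), which was also lost with library totals (0.63) and with only 2 genotypes in the fit (0.93). DESeq2 called 7 members in DKO mice, *Osmr* included, and, between DKO and IL10RAKO mice, 24 genes, 1 of them a member (*Lifr*, -0.84). In DKO against WT mice, *Clcf1* was called with only 2 genotypes in the fit (0.72) and by DESeq2, *Il6st* with library totals (-1.17) and by DESeq2, and *Osmr* with library totals (-2.77), with the deviance of edgeR 4 (-2.47) and by DESeq2. The causes were not tested.

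Leaving out each mouse gave 1485 to 2554 genes in IL10RAKO, 1691 to 2995 in DKO and 4 to 10 between DKO and IL10RAKO mice, the last highest without IL10RAKO mouse 2, with 4 to 6, 4 to 5 and 0 members called (counts that include *Osmr*). Ligand pairs called ranged from 0 to 2 (2 without IL10RAKO mouse 7, *Il6* with *Lif* and with *Clcf1*, and 1 without DKO mouse 3, *Il6* with *Lif*). Between DKO and IL10RAKO mice, log2 fold changes turned sign with library totals for *Il6* (0.0205) and *Osm* (0.0226), and on leaving out single mice, over which they ranged from -0.29 to 0.45 for *Il6*, -0.25 to 0.21 for *Osm*, -0.63 to 0.15 for *Lif*, -0.48 to 0.096 for *Il6st* and -0.22 to 0.0803 for *Il6ra*. None of these was called. Under a filter of 10 counts in every library, *Osmr* was not tested. At this depth, *Osmr* in the 8 mice without *Il10ra* rested on 16 reads or fewer per library.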
